A study of Mus musculus with 8 samples.

Results

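The aminoacyl-tRNA synthetases examined here were 36 genes, taken by name from the 52636 gene identifiers counted in S0 cells of the mouse fetal liver. They were 20 genes of the cytosolic set, 15 genes of the mitochondrial set, whose names end in 2, and Lars2, the mitochondrial leucyl-tRNA synthetase, which was kept apart because its counts may hold reads that resemble ribosomal RNA. The rule that names the members uses their function and no measured value, though it was chosen with earlier results of these data known. All 36 were among the 17378 genes that passed the filter on low counts.

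An aminoacyl-tRNA synthetase joins an amino acid to the tRNA that reads its codons, so that a synthetase typically serves 1 amino acid in the cytosol or in the mitochondrial matrix. The mitochondrial enzymes are encoded in the nucleus, imported, and used to translate the few proteins encoded by mitochondrial DNA, while Kars and Gars each make both forms from 1 gene. Many cytosolic synthetase genes are transcribed under ATF4, the transcription factor that is translated when kinases of eIF2α are active, as in amino acid shortage, and in red cell precursors the heme-regulated kinase Eif2ak1 is the best known of these kinases.

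S0 cells, the fraction negative for lineage markers, CD71 and Ter119 that holds the least mature erythroid precursors, were sorted from fetal livers at E12.5. The comparison was between 4 wild-type (WT) libraries and 4 libraries of Vps13a/Vps13c double knockout (DKO) embryos, all in a C57BL/6J background. In DKO, exon 6 of Vps13a had been removed in the whole body by Cre driven by the β-actin promoter, and Vps13c was knocked out as well. The DKO embryos came from crosses of Vps13a+/-/Vps13c-/- mice, which cannot give WT embryos, so litter and genotype cannot be told apart. VPS13A and VPS13C carry lipids between organelle membranes, and the comparison asked how their joint loss changed the transcripts of erythroid precursors. Each library is treated as 1 embryo, which the sources used here do not state, so that the p-values measure the spread between these libraries.

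Counts summed to between 42114489 and 50886469 per WT library and between 36981439 and 42587815 per DKO library. Levels below are normalized counts, which are counts scaled to the mean effective library size. Vps13a, the targeted gene, ranged from 1825 to 2109 in WT and from 607 to 1039 in DKO, while Vps13c, with 504 to 664 and 518 to 1088, did not check the labels. Xist was at 18029 or more in DKO replicates 1, 2 and 4 and at 62.3 in DKO replicate 3, which, with the WT libraries, had between 2516 and 3354 normalized counts of the Y-linked Ddx3y, so sex differs between the groups except for DKO replicate 3. The erythroid markers were present in every library, with a summed level of 37161 to 63268 in WT and 31705 to 79586 in DKO, and 2 of 8, Epor among them, were higher in DKO. The 5 progenitor markers summed to 34814 to 40833 in WT and 12333 to 22674 in DKO, lower in every DKO library, and 4 of 5 passed the test (median log2 fold change -1.11). Transcripts used as markers of other types were also present. The 8 hepatoblast markers summed to 672923 to 916833 in WT and 199623 to 775511 in DKO, with none of the 8 past edgeR's test, 3 lower at an unadjusted p under 0.05 and 3 lower by DESeq2, and the lowest sum was that of DKO replicate 3. The 5 mesenchymal markers summed to 1306 to 4999 in WT and 11164 to 41721 in DKO, and 5 of 5 were higher in DKO. The neutrophil and mast cell markers summed to 104360 to 137079 in WT and 5619 to 46973 in DKO, with 4 of 5 lower and Ly6g at 0 in all libraries, in a sort whose lineage antibodies include those to CD11b and Ly6G/Ly6C and so would remove mature neutrophils. The part of these cell types in the results below was not tested.

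Among the 20 cytosolic synthetases, 2 were higher in DKO, 3 were lower and 15 did not pass the test (edgeR quasi-likelihood test, adjusted p under 0.05). Sars and Cars, the seryl- and cysteinyl-tRNA synthetases, rose 1.69-fold and 1.49-fold, and Dars, Wars and Iars, which charge aspartate, tryptophan and isoleucine tRNAs, fell to 67.8%, 73.1% and 74.3% of WT. Of all genes tested, 10.7% were higher and 10.8% lower by the same rule. The 20 log2 fold changes lay between -0.56 and 0.75 with a median of 0.02, 11 above and 9 below 0, beside a median of 0.03 over all 17378 genes. No member other than Lars2 was changed by more than a log2 fold change of 1 in either direction, a limit passed by 6.19% of all genes upward and 2.43% downward. Lower values of a transcript in these bulk libraries can come from fewer cells of a type or from less RNA per cell, which cannot be told apart.

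**Figure D1:**
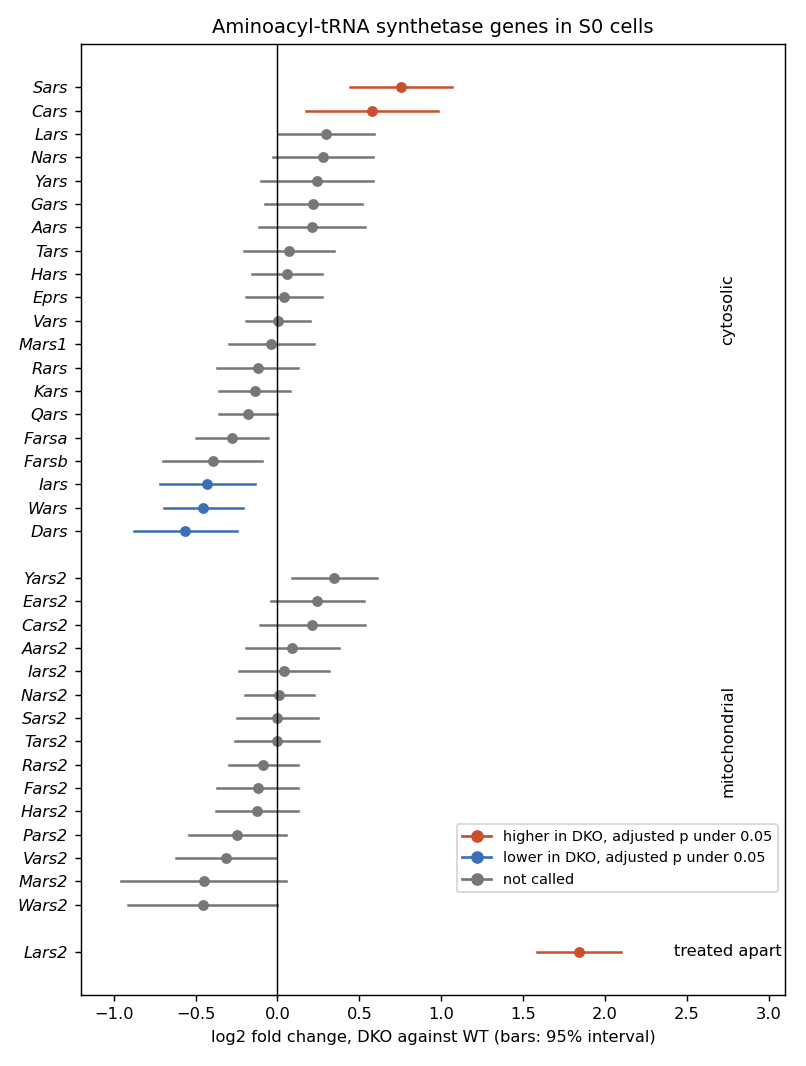
Log2 fold change of DKO against WT (horizontal axis) for each synthetase gene, with the 95% interval of the edgeR fit as a bar. Cytosolic genes are at the top, mitochondrial genes below and Lars2 at the bottom. Genes past the adjusted p of 0.05 are red where higher in DKO and blue where lower, and the cytosolic values spread from -0.56 to 0.75 while Lars2 stands at 1.84.

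Sars (ENSMUSG00000068739.13, chromosome 3, 108424865 to 108445209, minus strand, GRCm38) makes seryl-tRNA, which also starts the synthesis of selenocysteine. It had 7247, 6617, 7374 and 7317 normalized counts in WT replicates 1 to 4 and 9009, 12820, 11287 and 15031 in DKO replicates 1 to 4. All 4 DKO libraries exceeded all WT libraries, with DKO replicate 4 highest and replicate 1 closest to WT. The log2 fold change was 0.75 (SE 0.14, edgeR adjusted p = 0.00747, exact two-sided permutation test p = 0.0286, the smallest that 4 against 4 libraries allow). Among all genes, 13.5% had every DKO library above every WT library. Sars was past the threshold in all 16 alternative analyses, with log2 fold changes between 0.63 and 0.87.

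Cars (ENSMUSG00000010755.17, minus strand of chromosome 7 from 143557230 to 143600090) had 4815, 4173, 3939 and 4211 normalized counts in WT against 4421, 6285, 6074 and 8805 in DKO. DKO replicate 1 lay within the WT range and the other 3 DKO libraries above it. The log2 fold change was 0.58 (SE 0.18, edgeR adjusted p = 0.0466, exact permutation test p = 0.0571). The call held without DKO replicate 1 (adjusted p = 0.00651) and was lost when any 1 of the other 7 libraries was left out, with adjusted p between 0.0595 and 0.116.

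Dars (ENSMUSG00000026356.15, minus strand of chromosome 1 from 128363707 to 128417368) encodes the aspartyl-tRNA synthetase of the multi-synthetase complex. It had 16415, 15063, 13280 and 16118 normalized counts in the WT libraries and 7588, 10421, 11026 and 12206 in DKO, so that all DKO libraries were below all WT libraries. The log2 fold change was -0.56 (SE 0.14, edgeR adjusted p = 0.0213, exact permutation test p = 0.0286), and 14.6% of all genes had every DKO library below every WT library. The adjusted p was 0.0672 without WT replicate 1, 0.0551 without WT replicate 2 and 0.0618 without WT replicate 4.

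Wars (ENSMUSG00000021266.16, minus strand of chromosome 12 from 108860030 to 108894174), the tryptophanyl-tRNA synthetase, is known as a gene that interferon gamma induces. It had 6538, 5247, 5919 and 5965 normalized counts in WT against 3560, 4382, 4737 and 4630 in DKO, again with no overlap between the groups. The log2 fold change was -0.45 (SE 0.11, edgeR adjusted p = 0.0186, exact permutation test p = 0.0286), with an adjusted p of 0.0613 without WT replicate 1 and 0.05003 without WT replicate 4. Of 6 other interferon-induced genes, 4 rose in the same libraries. Ifit1 had a log2 fold change of 5.50 (adjusted p = 0.000343), Isg15 of 5.24 (adjusted p = 0.000346) and Irf7 of 3.34 (adjusted p = 0.00531). Gbp2 (1.17, adjusted p = 0.0752) and Irf1, a transcription factor induced by interferon gamma (-0.73, adjusted p = 0.0546), did not pass the test.

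Iars (ENSMUSG00000037851.13, plus strand of chromosome 13 from 49682100 to 49734267), the isoleucyl-tRNA synthetase, had 11722, 9365, 8913 and 11445 normalized counts in the WT libraries and 6216, 8087, 7701 and 8770 in DKO. The groups did not overlap, but WT replicate 3 was only slightly above DKO replicate 4. The log2 fold change was -0.43 (SE 0.13, edgeR adjusted p = 0.0419, exact permutation test p = 0.0286). The call held only without WT replicate 3 or DKO replicate 4, and leaving out any of the other 6 libraries ended it, with adjusted p between 0.0501 and 0.118.

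**Figure D2:**
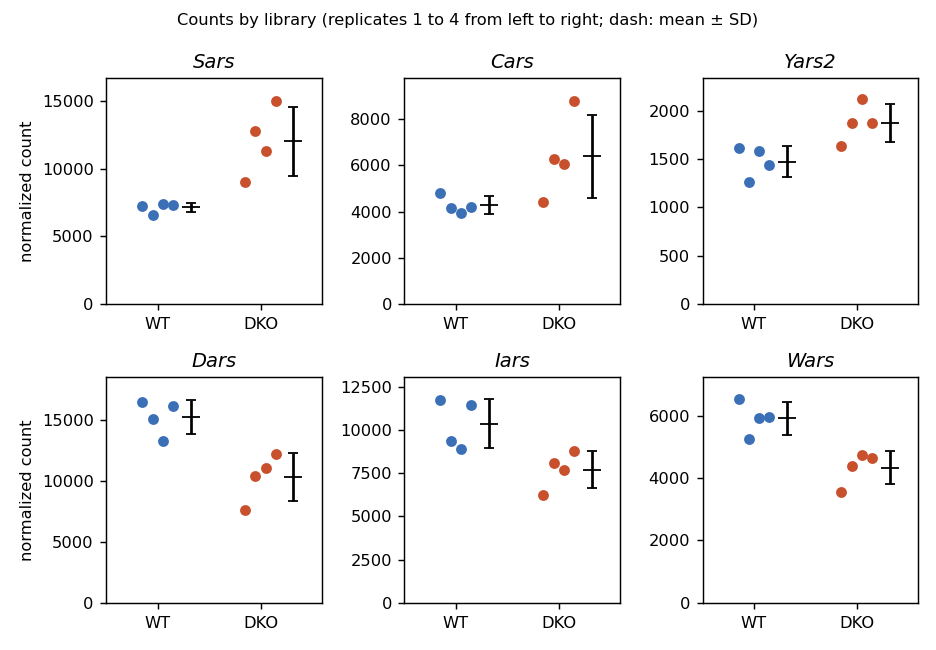
Normalized counts (vertical axes, from 0) of Sars, Cars, Yars2, Dars, Iars and Wars in the 4 WT libraries (blue) and the 4 DKO libraries (red), replicates 1 to 4 from left to right within each group, with the mean and SD beside them. In each of the 6 panels DKO replicate 1 is the lowest DKO library, and the groups overlap only for Cars.

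The 15 cytosolic members that did not pass the test included both subunits of the phenylalanyl-tRNA synthetase. Farsa stood at a log2 fold change of -0.28 (adjusted p = 0.0745 by edgeR) and Farsb at -0.40 (adjusted p = 0.0622), and for both subunits no DKO library reached the lowest WT value. Without DKO replicate 3 their adjusted p-values were 0.0491 and 0.0438, and without DKO replicate 1 that of Farsb was 0.0308. Gars and Kars, which serve both compartments, were among the 15. Gars had 14515, 12510, 13217 and 13536 normalized counts in WT against 11528, 16981, 15852 and 18253 in DKO, and its DKO values lay on both sides of WT (log2 fold change 0.22, adjusted p = 0.265). Kars had 16949, 16423, 17129 and 15932 in WT and 12358, 15374, 16148 and 16461 in DKO (-0.14, adjusted p = 0.335), with DKO replicates 1 and 2 below the WT range.

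Qars has no mitochondrial counterpart, since mitochondria make glutaminyl-tRNA from the product of Ears2. Qars had 6403, 6246, 7058 and 5926 normalized counts in the WT libraries and 5312, 5704, 6043 and 5582 in DKO, where the highest DKO library lay just above the lowest WT library (log2 fold change -0.18, edgeR adjusted p = 0.137). The other 10 cytosolic members had log2 fold changes of 0.30 (Lars), 0.28 (Nars), 0.24 (Yars), 0.21 (Aars), 0.07 (Tars), 0.06 (Hars), 0.04 (Eprs, the joint glutamyl- and prolyl-tRNA synthetase), 0.0048 (Vars), -0.04 (Mars1) and -0.12 (Rars). Their adjusted p-values were between 0.131 for Lars and 0.977 for Vars. Hars and Hars2 overlap on opposite strands and whether the counting used strand is not given in the sources used here, so their counts are uncertain.

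The cytosolic genes were also divided into 12 often listed as ATF4 targets and 8 others. In the ATF4-listed group, 2 were higher (Sars, Cars), 2 were lower (Iars, Wars) and 8 did not pass the test, with 9 of 12 log2 fold changes above 0 and a median of 0.22. Among the other 8 genes Dars was lower and 7 did not pass, with 2 of 8 above 0 and a median of -0.16. Of these 8, 4 were lower at an unadjusted p under 0.05 and 3 by DESeq2 (Dars, Farsa and Farsb), and none was higher by edgeR, by its unadjusted p or by DESeq2. In the ATF4-listed group 3 were higher and 2 lower at an unadjusted p under 0.05, and 2 higher and 2 lower by DESeq2. Of 30070 genes in the DESeq2 fit, 2777 were higher and 2658 lower. The share of all genes at an unadjusted p under 0.05 is not given here, so the unadjusted counts have no background. These are descriptions of lists and were not tested against each other. Grouped by the multi-synthetase complex, which holds Eprs, Iars, Lars, Mars1, Qars, Rars, Kars and Dars, 2 members were lower (Iars, Dars) and 6 did not pass the test, with a median of -0.13. By catalytic class the 10 class I enzymes had 1 higher and 2 lower with a median of -0.02, and the 10 class II enzymes 1 higher and 1 lower with a median of 0.06.

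The DKO libraries did not move together. DKO replicate 1 was the lowest of the 4 DKO libraries for 20 of 20 cytosolic genes and for 10 of 15 mitochondrial genes, and DKO replicate 4 was the highest for 12 of the 20. The share of all genes with DKO replicate 1 lowest is not given here. Its TMM scaling factor was 1.06, beside 0.973 to 0.988 in the other DKO libraries, and a larger factor lowers all normalized counts of a library. The part of this scaling in the order of the libraries was not tested. The median of the ATF4-listed group, on the log2 scale with 1 normalized count added and relative to the WT mean, was -0.24, 0.29, 0.13 and 0.47 in DKO replicates 1 to 4, and that of the other cytosolic genes was -0.45, -0.13, -0.06 and -0.11. DKO replicate 1 also had the highest summed level of the mesenchymal markers (41721) and the lowest of the neutrophil and mast cell markers (5619) and of the progenitor markers (12333), and the part of these in its synthetase values was not tested. Without DKO replicate 1, 7 cytosolic genes were higher (Aars, Cars, Gars, Lars, Nars, Sars and Yars, all ATF4-listed) and 3 were lower (Dars, Wars and Farsb). Of all 17798 genes in that analysis, 1915 were higher and 2012 lower. In that analysis Gars reached a log2 fold change of 0.34 (adjusted p = 0.0128 by edgeR), Nars of 0.40 (adjusted p = 0.0137), Yars of 0.38 (adjusted p = 0.0265), Aars of 0.34 (adjusted p = 0.0271) and Lars of 0.39 (adjusted p = 0.0395).

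**Figure D3:**
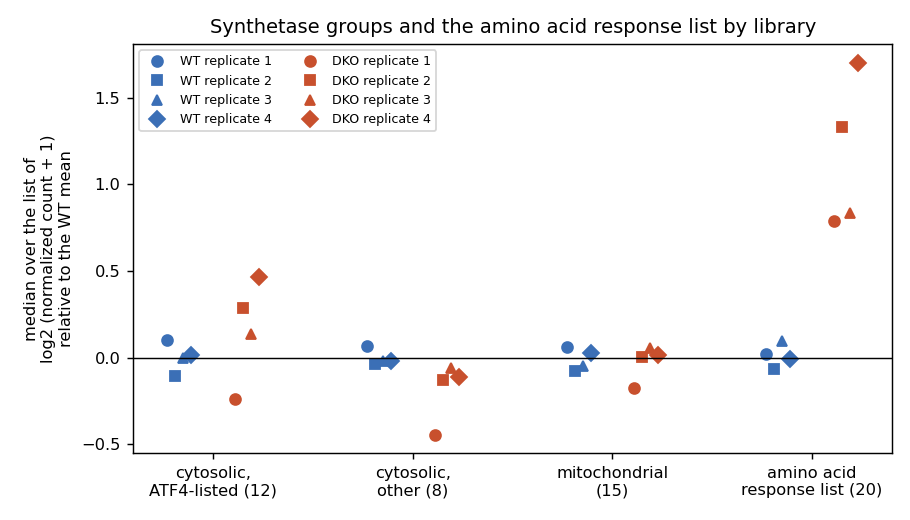
Median over each list of log2 (normalized count + 1) relative to the mean of the 4 WT libraries (vertical axis), for the 12 ATF4-listed cytosolic genes, the 8 other cytosolic genes, the 15 mitochondrial genes and the 20 genes of the amino acid response list. Blue symbols are WT and red symbols DKO, with 1 shape per replicate number, and DKO replicate 1 (circle) is the lowest DKO library in each of the 4 lists.

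The amino acid response list, 20 regulators and targets of ATF4 other than synthetases, had 16 genes higher, 13 of them past a log2 fold change of 1, and 4 that did not pass the test, with a median of 1.20. Without DKO replicate 1, 19 of these 20 genes were higher, beside 1915 of all 17798 genes in that analysis. Pck2, the mitochondrial phosphoenolpyruvate carboxykinase, reached a log2 fold change of 1.52 (adjusted p = 0.000575 by edgeR), Trib3, a pseudokinase that restrains the response, of 4.95 (adjusted p = 0.000962), Slc7a11, the cystine transporter, of 4.08 (adjusted p = 0.00143), and Ddit4, an inhibitor of mTORC1, of 3.57 (adjusted p = 0.0031). The synthetases that rose, Sars at 0.75 and Cars at 0.58, lay below this median. Of 6 genes of the kinases of eIF2α and their partners, 1 was lower (Eif2ak1, -0.46, adjusted p = 0.0121) and 5 did not pass the test.

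The promoters of the synthetases were searched for TGATGNAA, the core of the C/EBP-ATF response element bound by ATF4 dimers, on both strands of the 300 bases from 250 before to 50 after each gene start (RefSeq, GRCm38.p6). Of the 36 genes, 27 had an entry, and Cars, Hars, Lars, Nars, Rars, Vars, Wars, Hars2 and Pars2 did not. The letters were found in 5 of 13 cytosolic genes (38.5%), all in the ATF4-listed group (Aars, Gars, Iars, Tars and Yars, 5 of its 8 entries), in 0 of 5 other cytosolic genes, in 0 of 13 mitochondrial genes and not in the entry of Lars2. Of all 32851 promoters 3.97% held them, and of all 27025 genes 4.51%. A window of each is shown because the letters set these 5 genes apart by sequence, with the matched 8 bases in capitals and each window read 5′ to 3′ on the strand of its gene.
Aars, chr8:111033840-111033869, plus strand, 9 bases downstream of the start: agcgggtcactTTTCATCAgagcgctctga
Gars, chr6:55037960-55037989, plus strand, 30 bases upstream: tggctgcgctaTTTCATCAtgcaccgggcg
Iars, chr13:49682126-49682155, plus strand, 7 bases downstream: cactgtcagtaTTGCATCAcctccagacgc
Tars, chr15:11399655-11399684, minus strand, 15 bases upstream: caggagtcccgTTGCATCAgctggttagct
Yars, chr4:129189895-129189924, plus strand, 3 bases downstream: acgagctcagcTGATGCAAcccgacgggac

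In all windows shown but that of Yars the letters lie on the strand opposite to the gene. The genes with a match did not share a direction. Iars was lower in DKO, Aars, Gars and Yars had log2 fold changes of 0.21 to 0.24 that did not pass the test with all libraries, and Tars was at 0.07. Sars, the cytosolic gene with the largest rise, had no match in its window, nor had Eprs and Mars1. A match is a description of the letters, and its absence says only that they are not in these 300 bases. In the amino acid response list 6 of 17 entries (35.3%) held the letters.

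None of the 15 mitochondrial synthetases other than Lars2 passed the test in either direction (edgeR, adjusted p under 0.05). At an unadjusted p under 0.05 there were 3, Yars2 above and Vars2 and Wars2 below WT, and DESeq2 called 1 (Yars2). The share of all genes at that unadjusted p is not given here. The log2 fold changes lay between -0.46 and 0.35 with a median of -0.0045, 6 above and 9 below 0. For the 30 members not called, cytosolic ones included, the 95% interval of the log2 fold change reached between 0.18 and 0.50 to either side (median 0.27). These intervals are not adjusted for the number of genes tested, so they are not the limit of what could be called. Yars2 at 0.35 and Farsb at -0.40 had intervals that left out 0 and were not called. With 4 libraries per group, differences of this size or somewhat larger could be missed.

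Yars2, the mitochondrial tyrosyl-tRNA synthetase, had 1612, 1263, 1583 and 1438 normalized counts in WT against 1631, 1874, 2118 and 1876 in DKO. All 4 DKO libraries exceeded all WT libraries, DKO replicate 1 only just (log2 fold change 0.35, SE 0.12, edgeR adjusted p = 0.0608, exact permutation test p = 0.0286). It passed the threshold in 6 of the 16 alternatives, among them the one without DKO replicate 1 (adjusted p = 0.0287). Wars2 had 936, 917, 870 and 1067 in WT and 836, 637, 443 and 844 in DKO, with all DKO libraries lower (-0.46, SE 0.20, adjusted p = 0.137). Pars2, the mitochondrial prolyl-tRNA synthetase, had 986, 960, 983 and 978 in WT and 923, 933, 682 and 760 in DKO, also without overlap (-0.24, SE 0.13, adjusted p = 0.214). DKO replicate 3 was the lowest library for both genes. Against that library alone, the only DKO library with Ddx3y near the WT level, Wars2 stood at -1.11 (adjusted p = 0.00615) and Pars2 at -0.54 (adjusted p = 0.0492), in a fit that assumes the single library varies as WT does. The same library had a hepatoblast marker sum of 199623, beside 672923 to 916833 in WT, with all 8 of these markers lower in that fit, and the part of this in the values of Wars2 and Pars2 was not tested.

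Mars2, the mitochondrial methionyl-tRNA synthetase, had 2297, 2298, 1812 and 2333 normalized counts in the WT libraries and 1021, 2264, 1822 and 1288 in DKO, and the groups overlapped (log2 fold change -0.45, SE 0.22, edgeR adjusted p = 0.18). Without DKO replicate 2 it passed the threshold (-0.67, adjusted p = 0.0458). Vars2 was at -0.31 (adjusted p = 0.126). The other 10 mitochondrial genes had log2 fold changes of 0.24 (Ears2), 0.21 (Cars2), 0.09 (Aars2), 0.04 (Iars2), 0.01 (Nars2), -0.0014 (Sars2), -0.0045 (Tars2), -0.09 (Rars2), -0.12 (Fars2) and -0.12 (Hars2), with adjusted p-values from 0.196 to 0.995. Cars2 passed the threshold without DKO replicate 1 (0.34, adjusted p = 0.0436).

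In 12 pairs the mitochondrial member bears the name of the cytosolic one with a final 2 (Mars1 with Mars2). The log2 fold changes had the same sign in 7 of these pairs and opposite signs in 5. Other amino acids with a member for each compartment were left out of the pairs. Eprs at 0.04 stood beside Ears2 at 0.24 and Pars2 at -0.24. Farsa and Farsb at -0.28 and -0.40 stood beside Fars2 at -0.12, and Lars2 was kept apart. Sars at 0.75 stood beside Sars2 at -0.0014, and Iars at -0.43 beside Iars2 at 0.04. Wars and Wars2 stood at -0.45 and -0.46, and Yars and Yars2 at 0.24 and 0.35.

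Per kb of the principal transcript, the cytosolic genes had a higher level than the mitochondrial ones in 11 of the 12 pairs in WT, with a median ratio of 3.60 and a highest ratio of 17.04 for Nars to Nars2. The exception was Tars to Tars2 at 0.871. Cytosolic levels in WT ran from 1330 normalized counts per kb (Cars) to 8271 (Kars) with a median of 3411, and mitochondrial levels from 193 (Mars2) to 2510 (Tars2) with a median of 564. The WT mean of Mars2, 2185 normalized counts, was divided by a transcript of 11294 bases, the longest among the members. Its place as the lowest therefore depends on the annotated length. Sars was at 2000 ± 98.4 normalized counts per kb in WT and 3372 ± 711 in DKO (SD, n = 4). Its mean was below those of Yars, Tars, Qars, Iars, Mars1, Wars, Rars and Farsb in WT and above them in DKO. The same held beside the mitochondrial Rars2 and Tars2. Lars2, at 14157 ± 802 in WT and 50739 ± 7639 in DKO, was above all other members in both groups.

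**Figure D4:**
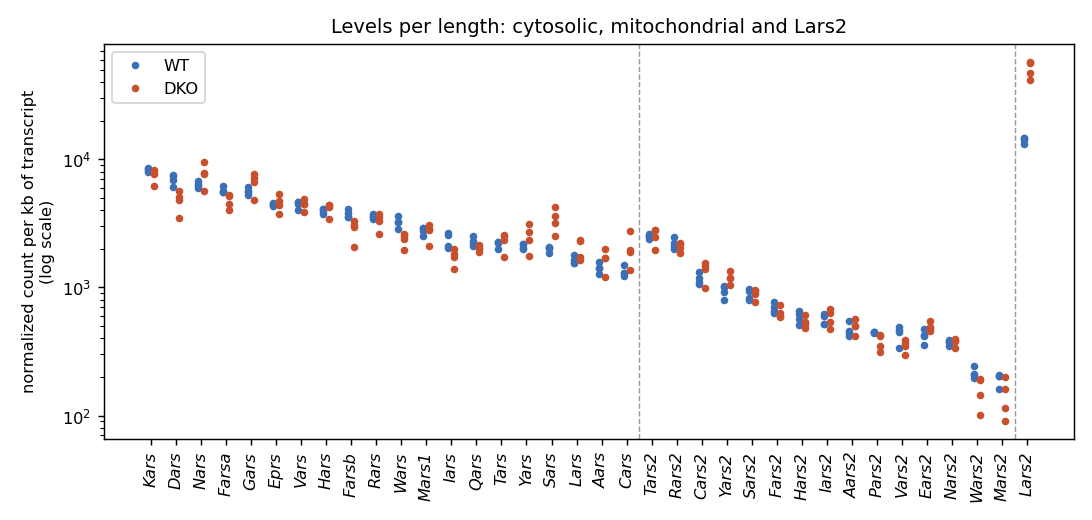
Normalized count per kb of the principal transcript (log scale) for each synthetase in the 4 WT (blue) and 4 DKO (red) libraries, cytosolic genes on the left, mitochondrial genes in the middle and Lars2 at the right, each set ordered by its WT mean. The WT means run from 8271 for Kars down to 193 for Mars2, and Lars2 stands apart at 14157 in WT.

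Lars2 (ENSMUSG00000035202.8, plus strand of chromosome 9 from 123366927 to 123462666) had 54665, 57345, 50889 and 57611 normalized counts in WT against 220623, 162991, 182601 and 224094 in DKO. All DKO libraries were far above all WT libraries, giving a difference of 1.84 on the log2 scale (SE 0.11, edgeR adjusted p = 5.06e-05, exact permutation test p = 0.0286). It was past the threshold in all 16 alternatives, with log2 fold changes between 1.71 and 1.95. Genes that resemble ribosomal RNA moved in the same libraries. Gm42418, whose transcript is complementary to the annotated rRNA gene CT010467.1 over 1244 bases, had 6210, 8062, 6617 and 5891 normalized counts in the WT libraries and 31487, 24062, 26804 and 26055 in DKO (log2 fold change 2.02, SE 0.12, adjusted p = 5.06e-05). Gm26917, another gene of the rRNA-like list, had 6796, 7117, 5953 and 7496 in WT and 29982, 22801, 24837 and 22343 in DKO (1.87, SE 0.12, adjusted p = 5.06e-05). Both stood about as far above WT as Lars2 did.

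Other transcripts of this kind were less even. The mitochondrial rRNA gene mt-Rnr2 was higher in DKO (log2 fold change 0.83, edgeR adjusted p = 0.00749), while mt-Rnr1 did not pass the test (0.80, adjusted p = 0.0614). Gm15564 had 5820, 6142, 5582 and 6167 normalized counts in WT against 0, 18308, 20129 and 25855 in DKO, so that it was far above WT in 3 DKO libraries and at 0 in DKO replicate 1 (1.44, adjusted p = 0.44). Lars2 had 220623 in DKO replicate 1. The annotated rRNA gene CT010467.1, chosen after its values were seen, rose from a mean of 99630 to 289397 (1.54, adjusted p = 0.00116).

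The ratio of Lars2 to Gm42418, Gm26917 and CT010467.1 was also taken within each library. No ratio to Gm15564 was taken. Lars2 to Gm42418 was 8.35 ± 1.19 in WT libraries and 7.30 ± 0.874 in DKO libraries (SD over 4 libraries each, exact two-sided permutation test p = 0.171, 0.3 after adjustment over the 3 ratios). Lars2 to Gm26917 was 8.08 ± 0.354 and 7.97 ± 1.38 (exact permutation test p = 0.8), and Lars2 to CT010467.1 was 0.555 ± 0.0321 and 0.715 ± 0.213 (p = 0.2, adjusted 0.3, exact permutation test). With 4 libraries per group these tests leave room for differences of the size of the SDs. By contrast Tars2, the mitochondrial member with the highest level apart from Lars2, had 6255, 5717, 6048 and 6075 normalized counts in the WT libraries and 4687, 5932, 6710 and 6692 in DKO, with overlap between the groups.

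The transcripts of the members were compared with those of 6 rRNA-like genes. Lars2 was the only 1 of the 36 members with a shared stretch of at least 50 bases at 90% identity or more, a stretch of 72 bases at 98.6% identity to Gm15564. It lies on chromosome 9 from 123462048 to 123462119, past the last coding base at 123461675, in the 3′ untranslated region. Lars2 shared no such stretch with Gm42418 or Gm26917, and CT010467.1 was not among the 6 genes. Outside the rRNA-like list, 5 genes of all those in the 141767 transcripts searched had such a stretch. Gene totals do not show where in Lars2 the reads lie, so the share of its count that came from this stretch was not tested, and Lars2 is kept out of every count of mitochondrial synthetases above.

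**Figure D5:**
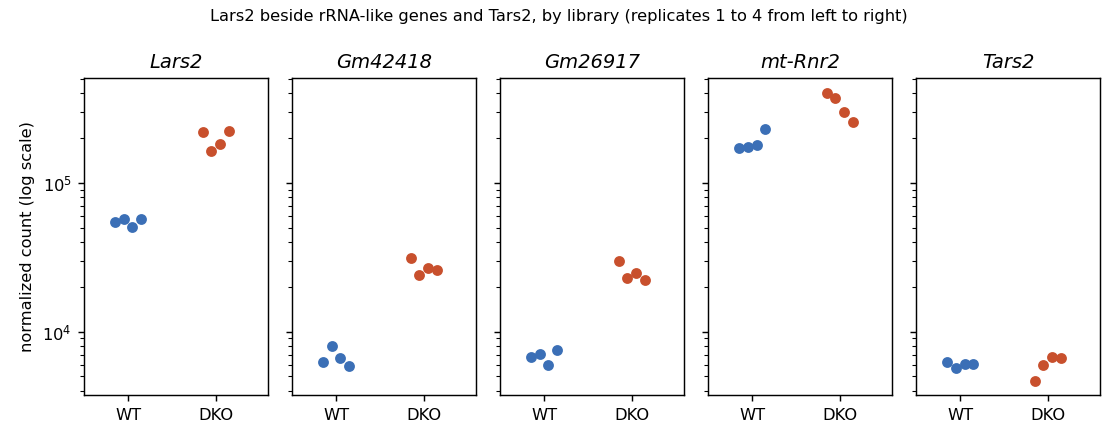
Normalized counts (log scale, shared by all panels) of Lars2, the rRNA-like genes Gm42418 and Gm26917, the mitochondrial rRNA gene mt-Rnr2 and the mitochondrial synthetase Tars2 in WT (blue) and DKO (red), replicates 1 to 4 from left to right. Lars2, Gm42418, Gm26917 and mt-Rnr2 show no overlap between the groups, while the DKO values of Tars2, 4687 to 6710, span those of WT.

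The substrates and partners of the synthetases completed the picture. Of the 22 mitochondrial tRNA genes 20 were tested, and 16 were higher in DKO and 2 lower, with a median log2 fold change of 1.23. Against DKO replicate 3 alone 8 were higher and 2 lower. The proline tRNA mt-Tp stood at 1.29 (edgeR adjusted p = 0.00207), the cysteine tRNA mt-Tc at 0.89 (adjusted p = 0.00369) and the alanine tRNA mt-Ta at 0.997 (adjusted p = 0.00428). The glycine tRNA mt-Tg was at 25.4 to 35.6 normalized counts in WT and at 1.05 or less in DKO (adjusted p = 0.0032). The arginine tRNA mt-Tr, named after its values were seen, was at 20.9 to 36.5 in WT and at 2.09 or less in DKO (adjusted p = 0.0064). The libraries were made from polyadenylated RNA by template switching, and counts of tRNA genes in them can include reads of longer precursors, so they are not read here as levels of mature tRNA. The synthetases that charge these tRNAs, Pars2, Cars2, Aars2, Gars and Rars2, did not pass the test.

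Of 18 scaffolds, editing factors and partners of the synthetases, 1 was higher and 2 were lower, with a median log2 fold change of 0.11. Gatb, a subunit of the amidotransferase that completes mitochondrial glutaminyl-tRNA after Ears2, had 2026, 2167, 1825 and 2224 normalized counts in WT against 1156, 810, 1179 and 1590 in DKO, with no overlap (-0.80, SE 0.18, edgeR adjusted p = 0.0152). Its partner subunits Gatc and Qrsl1 stood at -0.23 (adjusted p = 0.145) and 0.11 (adjusted p = 0.656). Aarsd1, which removes wrongly attached amino acids from alanine tRNA, was higher (0.38, adjusted p = 0.0428). The scaffold genes Aimp1, Aimp2 and Eef1e1 of the multi-synthetase complex stood at 0.29, -0.05 and 0.12 and did not pass the test. Of 9 elongation factors, which carry the charged tRNA to the ribosome or move the ribosome on, the cytosolic Eef1b2 was higher (0.33, adjusted p = 0.0342), the mitochondrial Gfm1 was lower (-0.51, adjusted p = 0.0473) and 7 did not pass.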

How the data were processed

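RNAseq of S0 cells was analysed in 4 WT and 4 DKO libraries, grouped by the sample labels. The authors trimmed the reads with fastp 0.21.0, mapped them to mm10 with HISAT2 2.2.1, discarded poorly mapped alignments and summarised the rest per gene with StringTie 1.3.3b and its prepDE script. The authors deposited these counts as whole numbers, neither normalized nor pooled. The script works back from coverage, so totals can differ from read numbers. Of 52636 identifiers, 52489 matched GENCODE M21 (GRCm38, the same assembly as mm10) with the version dropped and 49121 with it. Mars1 was found under its older name.

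Genes were filtered with filterByExpr, scaled by TMM and compared in R 4.3.3 with edgeR 4.0.16 (robust quasi-likelihood test, no covariate, Benjamini-Hochberg adjustment over 17378 genes). A gene was called at an adjusted p under 0.05. Called members were also compared by an exact two-sided permutation test over 70 arrangements. Counts per kb used 1 principal transcript per gene. Shared stretches were found with BLAST. The members, lists and tests were chosen with earlier results of these data known. Values in every library are given for called members and for Lars2, Wars, Kars, Gars and Qars, and of other lists for the up to 4 called genes with the smallest p. Library values of Yars2, Wars2, Pars2, Mars2, Tars2, Gatb, Gm42418, Gm26917 and Gm15564 were added after they were seen. Alternatives were DESeq2 1.42.0, other scalings and filters, a replicate block, DKO replicate 3 alone and each library left out. The fit was tested on simulated counts with known changes. At these depths the spread between libraries, not counting error, limits precision. The authors' other experiments were not analysed here. A few genes and 1 sequence window counted in the lists are not reported here.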

Additional observations from a re-analysis of the deposited data

Results flagged for a closer look

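In 72 groups of 4 libraries (36 genes in WT and in DKO), 5 held 1 library whose distance to its nearest neighbour made up more than 0.829 of the range of the group, and chance marks about 1 in 20 groups. Hars had 6769 normalized counts in DKO replicate 1, beside 8477 to 8752 in the other DKO libraries. Sars had 6617 in WT replicate 2, beside 7247 to 7374 in the other WT libraries, and Tars had 8009 in the same library, beside 8970 to 9046. Farsa had 11266 in WT replicate 1, beside 10187 to 10334. Mars2 had 1812 in WT replicate 3, beside 2297 to 2333. Neither Hars, Tars nor Mars2 passed the test between the groups, and Sars passed it without WT replicate 2 as well.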

How the results depend on the processing

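Sars and Lars2 were past the threshold in all 16 alternatives, while Cars was in 7, Dars and Wars in 12 and Iars in 7. Over the 36 genes, 490 values kept their direction and side of the threshold, 26 lost the threshold, 24 gained it and 36 turned in direction. The count of cytosolic genes higher in DKO was 2, against 1 without a low-count filter and 1 to 7 with 1 library left out (7 without DKO replicate 1). The count of cytosolic genes lower was 3, against 5 without TMM, 5 by DESeq2, 1 against DKO replicate 3 alone and 0 to 4 with 1 library left out. Mitochondrial genes higher were 0, against 0 to 2 with 1 library left out. The count was 1 (Yars2 each time) without TMM, with upper-quartile scaling, with at least 10 counts in every library and by DESeq2. It was also 1 (Yars2) with nuclear protein-coding genes only, histone genes left out. Mitochondrial genes lower were 0, against 2 with DKO replicate 3 alone and 0 to 1 with 1 library left out. With a log2 fold change beyond 1 no member other than Lars2 was called, 0 higher and 0 lower. Upper-quartile scaling moved the median of all genes from 0.03 to 0.14, the mitochondrial median to 0.102 and the count of all genes lower from 1878 to 1242. With 1 library left out, 858 to 1915 of all genes were higher and 898 to 2012 lower. The cause of these moves was not tested.

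The replicate numbers did not pair the libraries, since deviations from the group means of same-numbered libraries correlated at -0.102, 0.0535, -0.0276 and -0.0072. With a replicate block 1026 of all genes were higher and 1083 lower, and of the cytosolic genes 1 was higher (Sars) and 0 lower.

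Direction changed only for genes between -0.12 and 0.04 with all libraries. Against DKO replicate 3 alone Eprs stood at -0.0285, Fars2 at 0.052, Hars2 at 0.0305, Iars2 at -0.0802, Mars1 at 0.0235, Rars at 0.0434, Sars2 at 0.0508 and Tars2 at 0.137. With upper-quartile scaling Mars1 stood at 0.0698, Rars2 at 0.0225, Sars2 at 0.107 and Tars2 at 0.102. With nuclear protein-coding genes only, histone genes left out, Mars1 stood at 0.00159, Sars2 at 0.0387 and Tars2 at 0.0338. Without a filter Nars2 stood at -0.0129 and Vars at -0.0186, and without TMM Sars2 at 0.000483. With at least 10 counts Sars2 stood at 0.0154 and Tars2 at 0.0102, and by DESeq2 Vars at -0.00492. With 1 library left out, Eprs ranged from -0.0432 to 0.126, Iars2 from -0.037 to 0.13, Mars1 from -0.0955 to 0.0688, Nars2 from -0.0254 to 0.0586, Sars2 from -0.0492 to 0.0649, Tars2 from -0.0579 to 0.0995 and Vars from -0.0389 to 0.064.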
